A study of Mus musculus with 12 samples.

Results

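Chemokines are small secreted proteins that draw leukocytes along a gradient, and macrophages are among their main sources. The 37 genes described here encode 24 chemokine ligands (13 of the CC class, 10 of the CXC class and the CX3C ligand Cx3cl1), 8 signalling receptors and 5 atypical receptors. They were chosen by symbol from the 22180 genes that had a transcript cluster, the array's unit of measurement, annotated with a single gene symbol; each of the 37 had exactly 1 such cluster. Of these, 28 (18 ligands and 10 receptors) had a mean log2 signal above 2.01, the 40th percentile of all clusters, and were tested; the other 9 were not.

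The cells were RAW 264.7, a mouse macrophage-like line transformed by Abelson murine leukaemia virus, collected 48 h after transfection. The groups were Pre-miR-223, a mimic meant to raise miR-223 activity, Anti-miR-223, an inhibitor meant to block it, and Scramble, an irrelevant control oligonucleotide. Each group had 4 arrays titled as biological replicates. All 12 samples came from the same transformed line and all were transfected, so no group shows untransfected cells, and both oligonucleotides were set against the same 4 Scramble arrays. All values below are log2 signals or differences of log2 signals. A probe's signal also depends on the probe, so levels are set against each other only within a gene.

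CC and CXC ligands are named after the spacing of their first cysteines. CC ligands mostly attract monocytes, macrophages and lymphocytes, while CXC ligands of the Cxcl1 type attract neutrophils and the interferon-induced Cxcl9, Cxcl10 and Cxcl11 attract activated T cells. Receptors signal through G proteins of the Gi class, whereas atypical receptors bind chemokines without that signal and mostly remove them. In macrophages, NF-kB and interferon signalling switch on many ligand genes, and many of their mRNAs are short-lived.

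MiR-223 is a microRNA abundant in myeloid cells, and Cxcl2 and Ccl3 have been reported among its targets. The mature forms are printed because the mimic and the inhibitor are named after them; RefSeq gives them on GRCm38.p6, and capitals mark the seed, bases 2 to 8. The labels do not say which arm the oligonucleotides correspond to.
mmu-miR-223-3p, chrX:96242884-96242905, + strand: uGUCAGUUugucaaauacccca
mmu-miR-223-5p, chrX:96242842-96242864, + strand: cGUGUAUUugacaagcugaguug
The only cluster annotated with Mir223 carried a second symbol, so whether either oligonucleotide reached the cells was not tested.

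The samples carried macrophage transcripts. All 10 macrophage markers examined were above log2 2.01, and their mean per array ran from 7.15 to 7.45 with Pre-miR-223, from 7.17 to 7.80 with Anti-miR-223 and from 7.32 to 7.53 with Scramble. The highest single marker mean was 2.14 among 8 neutrophil markers, 2.15 among 6 T cell markers, 1.87 among 4 B cell markers and 2.53 among 7 fibroblast markers. It was 2.60 among 4 dendritic cell markers, 3.52 (Krt8, a keratin) among 4 epithelial markers and 4.45 (Ctsk, a protease that macrophages also make) among 7 osteoclast markers. Passing log2 2.01 was not particular to macrophage markers. It was also passed by 3 of the 8 neutrophil, 3 of the 6 T cell, 0 of the 4 B cell and 2 of the 4 dendritic cell markers. So did 5 of the 7 fibroblast, 3 of the 4 epithelial and 6 of the 7 osteoclast markers. Single macrophage marker means ran from 2.15 (Cd86) to 11.19 (Lyz2), with Mertk at 2.42. The part of other cells in the values below was not tested further.

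The array of Anti-miR-223 replicate 4 differed from the rest over the tested genes. Its median correlation with the other 11, taken over genes, was 0.967, where the rest had 0.988 to 0.992. It held 629 genes more than 2-fold away from their mean over the 12 arrays, and no other array held more than 37. Differences and counts that involve Anti-miR-223 are therefore given with and without it for the values as deposited. Values from other scalings or settings, or with another array left out, include it, as do group means. Among the 28 tested chemokine genes this array had the highest of the 12 signals in 8. Replicate 4 of Pre-miR-223 had the lowest signal in 8, and Scramble replicate 1 had the highest in 6.

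**Figure D1:**
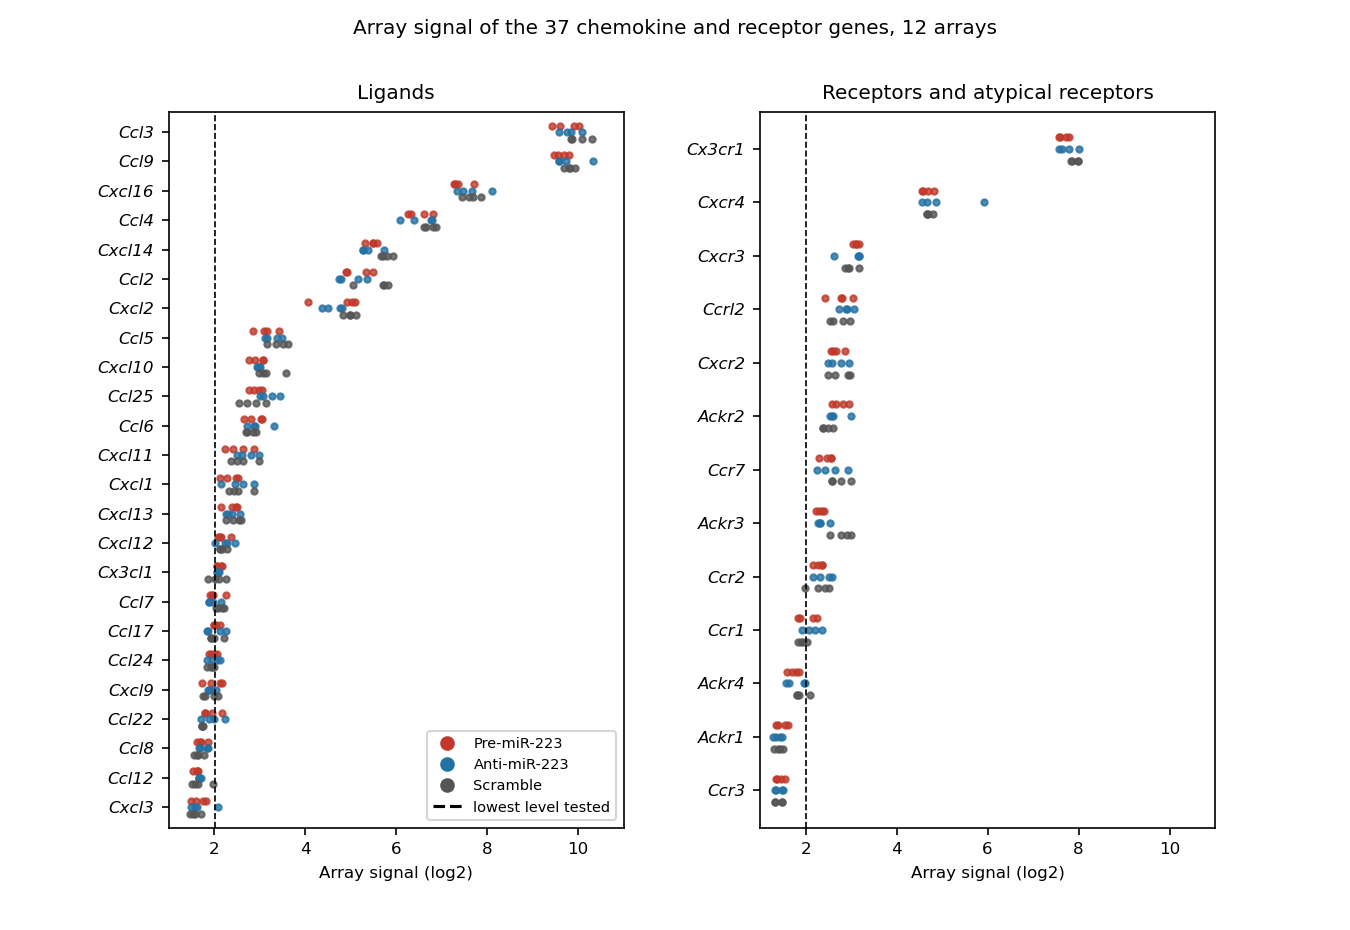
Log2 signal of each of the 37 genes in every array of the Pre-miR-223, Anti-miR-223 and Scramble groups (points are arrays, n = 4 each, in rows from top to bottom within a gene), ligands and receptors apart. The dashed line marks log2 2.01, the level required for testing; the 12-array means of 9 genes reach log2 4 and none of the other 12-array means exceeds 3.28.

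No chemokine or receptor gene passed the test in any comparison. Limma, with Benjamini-Hochberg adjustment over 14611 genes, called 0 of the 28 between Pre-miR-223 and Scramble, between Anti-miR-223 and Scramble, between Pre-miR-223 and Anti-miR-223, and between the mean of both oligonucleotides and Scramble; it also called 0 of all genes in each. The lowest adjusted p among the 28 was 0.921, 0.99997, 0.946 and 0.99996 in that order. The 95% confidence interval of the difference excluded 2-fold in either direction for 28 of 28 genes in every comparison, and for 98.5%, 98.9%, 97.9% and 99.6% of all genes in that order. Without Anti-miR-223 replicate 4, 2-fold was excluded for 27 of 28 between Anti-miR-223 and Scramble, the exception being Ccl2, against 99.5% of all genes, and for 28 of 28 in both other comparisons that involve Anti-miR-223. With all arrays the interval excluded 1.5-fold for 21 with Pre-miR-223 and for 21 with Anti-miR-223, each against Scramble, where it did so for 82.8% and 88.1% of all genes; without that array the second count was 25, against 89.1%. These intervals bound differences of array signal. Of the 28 genes, 19 had a mean below log2 4, and near log2 2 differences of the signal may be understated. In bulk RNA, fewer cells of a type and less RNA per cell cannot be told apart. Every difference named below is therefore a measured value that did not pass the test.

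Among the CC ligands, Ccl2, the main attractant of monocytes, showed the largest differences from Scramble. It had 4.89, 5.50, 4.92 and 5.33 with Pre-miR-223, 4.79, 4.75, 5.15 and 5.35 with Anti-miR-223, and 5.06, 5.71, 5.73 and 5.81 with Scramble. Replicates 2 to 4 of Scramble lay above all 8 arrays that received a miR-223 oligonucleotide, while Scramble replicate 1 lay among them. The difference from Scramble was -0.42 (95% CI -0.84 to 0.003) with Pre-miR-223 and -0.57 (-0.99 to -0.15) with Anti-miR-223. Leaving out Scramble replicate 1 gave -0.59 and -0.74, and leaving out Anti-miR-223 replicate 4 gave -0.68 for the second. Without Pre-miR-223 replicate 1 the first was -0.33, and without Anti-miR-223 replicate 2 the second was -0.48. After centring, repeated quantile normalisation or cyclic loess, the first ran from -0.34 to -0.31 and the second from -0.56 to -0.55. Both oligonucleotides together differed from Scramble by -0.49 (-0.86 to -0.13), or by -0.55 without Anti-miR-223 replicate 4. The related monocyte attractant Ccl7 averaged 2.03, 1.98 and 2.13 with Pre-miR-223, Anti-miR-223 and Scramble, close to the lowest level tested, and Ccl8 and Ccl12 lay below it.

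Ccl3, Ccl4 and Ccl5 are inflammatory ligands that attract monocytes and T cells. Ccl3 had 9.91, 10.02, 9.61 and 9.43 with Pre-miR-223, 9.85, 9.58, 10.08 and 9.75 with Anti-miR-223, and 10.31, 10.08, 9.85 and 9.87 with Scramble. The 3 groups overlapped, and the differences were -0.29 (-0.62 to 0.04) for Pre-miR-223 and -0.21 (-0.54 to 0.12) for Anti-miR-223. Without Pre-miR-223 replicate 4, its lowest array, the first of these was -0.18. The second was -0.19 without Anti-miR-223 replicate 4, -0.13 without Anti-miR-223 replicate 2 and -0.12 without Scramble replicate 1. Ccl4 had 6.62, 6.82, 6.32 and 6.26 with Pre-miR-223, 6.77, 6.40, 6.78 and 6.09 with Anti-miR-223, and 6.82, 6.62, 6.66 and 6.88 with Scramble. Its differences were -0.24 (-0.59 to 0.11) and -0.23 (-0.59 to 0.12), the second of which was -0.09 without Anti-miR-223 replicate 4. Ccl5 averaged 3.14 ± 0.23, 3.29 ± 0.18 and 3.42 ± 0.20 (SD, n = 4) with Pre-miR-223, Anti-miR-223 and Scramble.

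Ccl9 and Ccl6 are related rodent ligands that act on Ccr1 and have no direct human counterpart. Ccl9 had 9.55, 9.79, 9.68 and 9.47 with Pre-miR-223, 9.58, 9.58, 9.73 and 10.32 with Anti-miR-223, and 9.82, 9.93, 9.69 and 9.80 with Scramble. The groups overlapped, and Anti-miR-223 replicate 4 was the highest of the 12. The difference was -0.19 (-0.51 to 0.14) for Pre-miR-223 and -0.01 (-0.33 to 0.32) for Anti-miR-223, or -0.18 without that array. Ccl6 averaged 2.88 ± 0.19 with Pre-miR-223, 2.95 ± 0.25 with Anti-miR-223 and 2.79 ± 0.10 with Scramble.

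Ccl25, the ligand of the gut-homing receptor Ccr9, was the ligand with the largest positive difference. It had 3.04, 2.77, 2.98 and 2.88 with Pre-miR-223, 3.0, 3.26, 3.08 and 3.45 with Anti-miR-223, and 2.73, 2.54, 3.14 and 2.92 with Scramble. Anti-miR-223 arrays lay above 3 of the 4 Scramble arrays, and Scramble replicate 3 lay among them. The difference was 0.09 (-0.21 to 0.38) for Pre-miR-223 and 0.37 (0.07 to 0.66) for Anti-miR-223, which was 0.28 without Anti-miR-223 replicate 4. Ccl17, a Ccr4 ligand that attracts T cells, averaged 2.04, 2.02 and 2.02 with Pre-miR-223, Anti-miR-223 and Scramble, at the edge of the level tested.

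**Figure D2:**
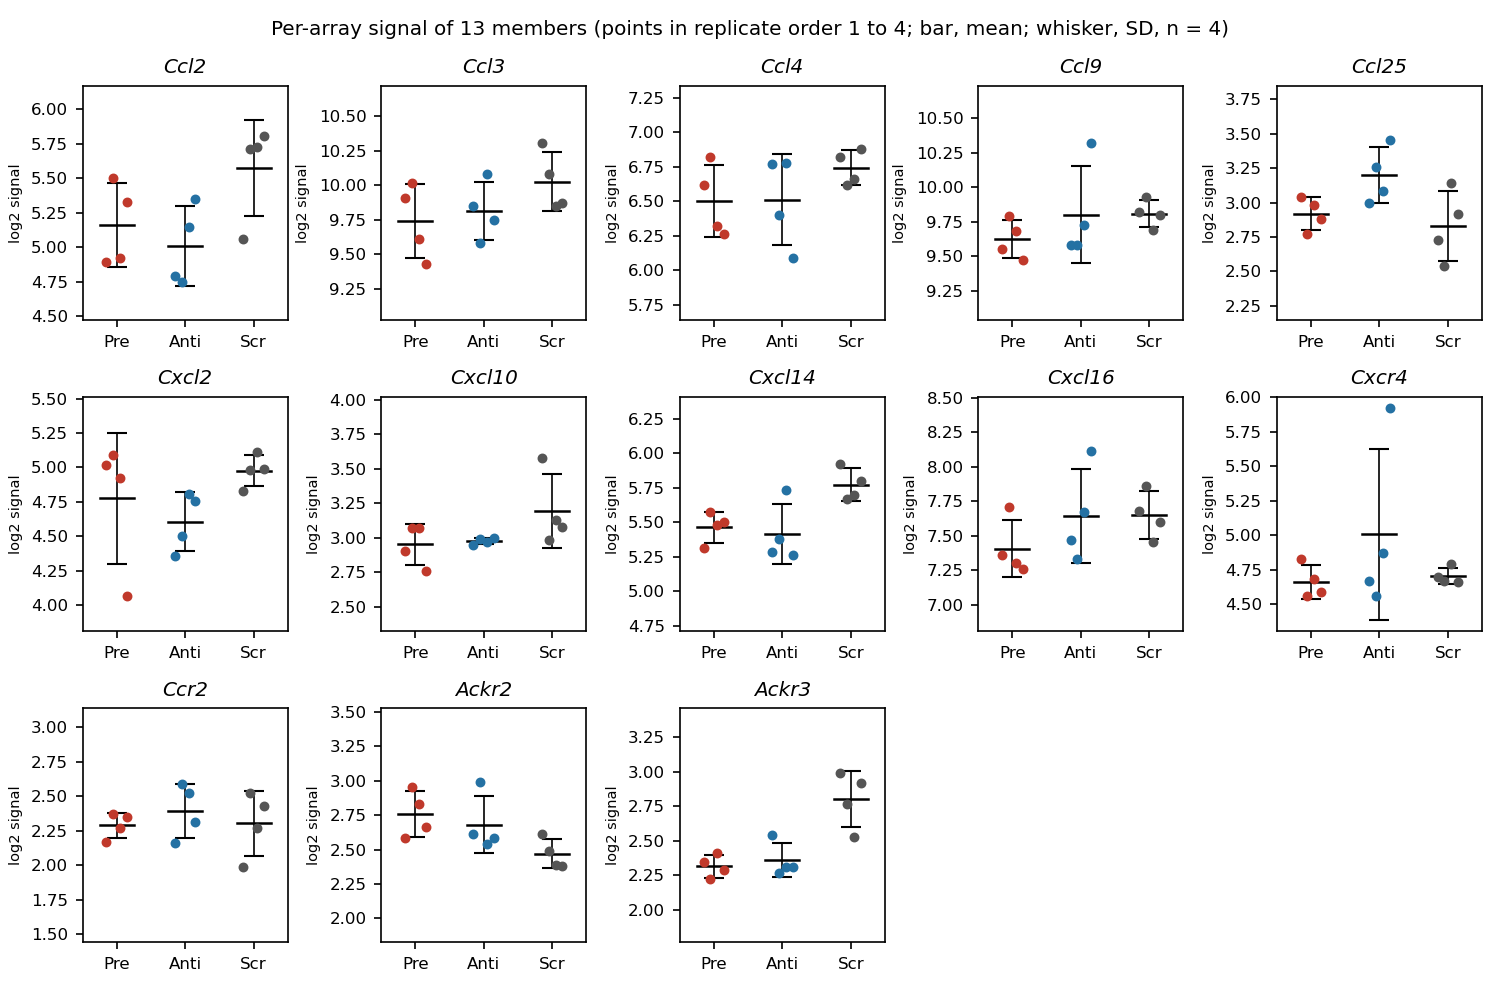
Log2 signal in every array for 13 genes, with Pre-miR-223, Anti-miR-223 and Scramble from left to right (points are arrays, horizontal lines are group means and whiskers SD, n = 4; each panel has its own axis). Scramble lies above Pre-miR-223 with no overlap for Ackr3 and Cxcl14, and Anti-miR-223 replicate 4 sets the Anti-miR-223 mean for Cxcr4.

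Among the neutrophil-attracting CXC ligands, Cxcl2 had 5.02, 5.09, 4.92 and 4.07 with Pre-miR-223, 4.36, 4.50, 4.81 and 4.76 with Anti-miR-223, and 4.83, 4.98, 5.11 and 4.99 with Scramble. Every Anti-miR-223 array lay below every Scramble array, by as little as 4.81 against 4.83, while 3 Pre-miR-223 arrays lay among the Scramble arrays and replicate 4 lay below all others. The difference was -0.37 (-0.78 to 0.04) for Anti-miR-223, and -0.42 (-0.84 to -0.001) without Anti-miR-223 replicate 4. It was -0.20 (-0.62 to 0.21) for Pre-miR-223, and 0.03 without Pre-miR-223 replicate 4. Its neighbours Cxcl1 and Cxcl3 attract neutrophils through the same receptor, Cxcr2. Cxcl1 averaged 2.35 ± 0.19, 2.53 ± 0.31 and 2.55 ± 0.24 with Pre-miR-223, Anti-miR-223 and Scramble, and Cxcl3 lay below the level tested.

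The promoters of Cxcl2 and Cxcl3 are shown because these neighbours share an NF-kB sequence that they hold a different number of times. Promoters cover 250 bases before to 50 after the start site, from RefSeq on GRCm38.p6, and capitals mark matches, on either strand, to the NF-kB letters GGG, any pair of bases, then TTTCC.
Cxcl2 promoter, chr5:90903649-90903948, + strand: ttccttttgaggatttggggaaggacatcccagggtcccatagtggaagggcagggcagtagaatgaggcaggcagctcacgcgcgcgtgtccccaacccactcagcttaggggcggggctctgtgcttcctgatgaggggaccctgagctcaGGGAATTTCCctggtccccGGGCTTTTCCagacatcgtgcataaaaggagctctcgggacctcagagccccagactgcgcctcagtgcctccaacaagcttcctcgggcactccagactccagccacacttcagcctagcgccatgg
Cxcl3 promoter, chr5:90785851-90786150, + strand: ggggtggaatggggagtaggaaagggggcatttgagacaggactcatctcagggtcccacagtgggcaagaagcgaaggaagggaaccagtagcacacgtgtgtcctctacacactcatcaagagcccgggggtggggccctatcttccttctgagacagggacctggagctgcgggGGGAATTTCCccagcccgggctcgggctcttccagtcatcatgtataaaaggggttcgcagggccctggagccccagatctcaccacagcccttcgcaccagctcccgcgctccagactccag
Cxcl2 held 2 matches and Cxcl3 held 1. Their neighbour Cxcl1, whose promoter is not printed, also held 2. RefSeq promoters were found for 29 of the 37 genes, 32 promoters in all. Of these 32, 5 (of Ccl9, Ccr3, Cxcl1, Cxcl2 and Cxcl3) held this sequence, against 1.63% of 32851 promoters of the same length. Promoters of Ccl2, Ccl4, Ccl5, Ccl7, Ccl24, Cxcl11, Cxcl16 and Ccr7 were not used here. A match describes letters only and does not show binding. Other spellings of the NF-kB site were not searched, so unmarked bases of any promoter printed here may hold them.

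Of the interferon-induced CXC ligands, Cxcl10 had 2.90, 3.07, 3.07 and 2.76 with Pre-miR-223, 2.95, 2.99, 2.97 and 3.0 with Anti-miR-223, and 3.58, 2.98, 3.13 and 3.08 with Scramble. Scramble replicate 1 was the highest array and the other Scramble arrays lay within or just above the range of the rest. The differences were -0.24 (-0.52 to 0.03) for Pre-miR-223 and -0.21 (-0.49 to 0.06) for Anti-miR-223, and -0.11 and -0.08 without Scramble replicate 1. Without Anti-miR-223 replicate 4 the second was -0.22. Cxcl11 averaged 2.54, 2.72 and 2.62 with Pre-miR-223, Anti-miR-223 and Scramble, and Cxcl9 lay below the level tested.

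Cxcl14, a ligand that attracts monocytes and dendritic cell precursors, was lower with both oligonucleotides. It had 5.31, 5.57, 5.48 and 5.50 with Pre-miR-223, 5.28, 5.38, 5.73 and 5.26 with Anti-miR-223, and 5.92, 5.67, 5.70 and 5.80 with Scramble. Pre-miR-223 and Scramble did not overlap, and Anti-miR-223 overlapped Scramble through replicate 3 alone. The difference was -0.31 (-0.56 to -0.05) for Pre-miR-223 and -0.36 (-0.61 to -0.10) for Anti-miR-223, or -0.31 without Anti-miR-223 replicate 4. Over fits that each left out 1 array, the values ran from -0.35 to -0.26 and from -0.47 to -0.31. Other scalings of the arrays moved the first more. Pre-miR-223 minus Scramble was -0.20 (-0.51 to 0.11) after repeated quantile normalisation, -0.20 (-0.50 to 0.11) after cyclic loess and -0.23 (-0.52 to 0.06) after centring each array on its median, and these intervals include 0. Anti-miR-223 minus Scramble lay between -0.36 and -0.34 in the same settings.

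Of the 32 promoters of 29 genes, those of Cxcl10 and Cxcl14 alone held the interferon-response letters on either strand (in capitals). These letters are GAAA, any pair of bases, then GAAA, found in 3.44% of all promoters. Cxcl10 and Cxcl14 are printed as the pair that shares this feature on GRCm38.p6.
Cxcl10 promoter, chr5:92348840-92349139, - strand: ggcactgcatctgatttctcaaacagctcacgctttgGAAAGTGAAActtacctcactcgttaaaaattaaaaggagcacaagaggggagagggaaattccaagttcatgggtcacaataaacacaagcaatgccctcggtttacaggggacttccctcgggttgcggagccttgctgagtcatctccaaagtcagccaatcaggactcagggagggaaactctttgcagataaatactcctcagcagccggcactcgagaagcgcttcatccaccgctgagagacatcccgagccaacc
Cxcl14 promoter, chr13:56296502-56296801, - strand: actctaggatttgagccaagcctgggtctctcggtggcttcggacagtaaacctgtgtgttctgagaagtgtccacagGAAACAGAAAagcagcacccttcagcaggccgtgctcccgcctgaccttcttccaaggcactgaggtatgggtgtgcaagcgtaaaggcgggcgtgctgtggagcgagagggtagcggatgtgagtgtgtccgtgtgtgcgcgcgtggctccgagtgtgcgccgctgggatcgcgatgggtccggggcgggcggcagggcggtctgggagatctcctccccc

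Cxcl16, a membrane-bound ligand that also takes up oxidised lipoprotein, had 7.36, 7.71, 7.30 and 7.26 with Pre-miR-223, 7.47, 7.33, 7.67 and 8.11 with Anti-miR-223, and 7.68, 7.86, 7.45 and 7.60 with Scramble. The groups overlapped. The difference was -0.24 (-0.59 to 0.11) for Pre-miR-223 and -0.01 (-0.36 to 0.34) for Anti-miR-223, or -0.16 without Anti-miR-223 replicate 4, the highest array. Cxcl12, which retains cells in bone marrow through Cxcr4, averaged 2.18, 2.24 and 2.18 with Pre-miR-223, Anti-miR-223 and Scramble. The B cell attractant Cxcl13 averaged 2.37, 2.38 and 2.45 in the same groups, and Cx3cl1, the membrane-bound ligand of Cx3cr1, averaged 2.11, 2.07 and 2.06.

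Among the signalling receptors, Cx3cr1, the fractalkine receptor of monocytes and tissue macrophages, had 7.73, 7.80, 7.58 and 7.60 with Pre-miR-223, 7.63, 7.56, 7.80 and 8.02 with Anti-miR-223, and 7.99, 7.98, 7.86 and 7.83 with Scramble. All 4 Pre-miR-223 arrays lay below all 4 Scramble arrays, as did 3 of the Anti-miR-223 arrays, while Anti-miR-223 replicate 4 was the highest of the 12. The difference was -0.24 (-0.48 to 0.004) for Pre-miR-223, and from -0.16 to -0.12 after centring, repeated quantile normalisation or cyclic loess. For Anti-miR-223 it was -0.16 (-0.40 to 0.08) with all arrays and -0.25 (-0.47 to -0.03) without replicate 4, but -0.10 without replicate 2.

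Cxcr4, the receptor of Cxcl12, had 4.83, 4.56, 4.68 and 4.59 with Pre-miR-223, 4.67, 4.56, 4.87 and 5.92 with Anti-miR-223, and 4.70, 4.67, 4.79 and 4.66 with Scramble. Only Anti-miR-223 replicate 4 departed from the others. The difference was -0.04 (-0.52 to 0.44) for Pre-miR-223 and 0.30 (-0.18 to 0.78) for Anti-miR-223, and the second was -0.003 without that array. Cxcr4 also had the widest spread within groups of the 28, a residual SD of 0.37 that exceeded that of 92.5% of tested genes.

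Ccr2, the receptor of Ccl2, had 2.17, 2.37, 2.27 and 2.35 with Pre-miR-223, 2.16, 2.59, 2.52 and 2.31 with Anti-miR-223, and 1.99, 2.52, 2.27 and 2.43 with Scramble. The groups overlapped, with differences of -0.01 (-0.29 to 0.27) and 0.09 (-0.19 to 0.37), the second being 0.12 without Anti-miR-223 replicate 4. Ccr7, which guides cells to lymph nodes, averaged 2.47 ± 0.12 with Pre-miR-223, 2.56 ± 0.30 with Anti-miR-223 and 2.73 ± 0.20 with Scramble; its Pre-miR-223 and Scramble arrays did not overlap, at up to 2.56 against 2.57 or more. Ccr1, a receptor of Ccl3, averaged 2.02, 2.14 and 1.92 with Pre-miR-223, Anti-miR-223 and Scramble. In the same order, the neutrophil receptor Cxcr2 averaged 2.68, 2.71 and 2.76 and the T cell receptor of Cxcl10, Cxcr3, averaged 3.10, 3.04 and 2.98.

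Of the atypical receptors, Ackr3, which binds and removes Cxcl12, had 2.35, 2.22, 2.41 and 2.29 with Pre-miR-223, 2.54, 2.27, 2.31 and 2.31 with Anti-miR-223, and 2.99, 2.77, 2.53 and 2.92 with Scramble. Pre-miR-223 did not overlap Scramble, and Anti-miR-223 met it only where its replicate 1, at 2.54, lay beside Scramble replicate 3, at 2.53. The difference was -0.49 (-0.73 to -0.24) for Pre-miR-223 and -0.44 (-0.69 to -0.20) for Anti-miR-223. Without any 1 array the values stayed between -0.58 and -0.42 and between -0.53 and -0.38. The smallest p of all 28 genes in both comparisons belonged to Ackr3, with limma adjusted p of 0.921 and 0.99997. Without Anti-miR-223 replicate 4 the second difference was -0.43 (-0.69 to -0.17). The residual SD of Ackr3, 0.146, was above that of 23.6% of tested genes. The SD was uneven, at 0.08 with Pre-miR-223, 0.12 with Anti-miR-223 and 0.20 with Scramble. The 12-array mean of Ackr3 was low, at 2.49, where a mean above 2.01 was required for testing.

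Ackr2, which removes inflammatory CC ligands, had 2.58, 2.95, 2.83 and 2.66 with Pre-miR-223, 2.61, 2.99, 2.54 and 2.58 with Anti-miR-223, and 2.61, 2.49, 2.39 and 2.38 with Scramble. Scramble replicate 1 lay among the Pre-miR-223 arrays and the other Scramble arrays lay below them. The difference was 0.29 (0.02 to 0.55) for Pre-miR-223 and 0.21 (-0.06 to 0.47) for Anti-miR-223. Anti-miR-223 replicate 2 was the highest array, and without it the second value was 0.10; without Anti-miR-223 replicate 4 it was 0.24. Ccrl2, which binds the attractant chemerin without signalling, averaged 2.76 ± 0.26, 2.90 ± 0.14 and 2.74 ± 0.20 with Pre-miR-223, Anti-miR-223 and Scramble.

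The 9 genes not tested were the ligands Ccl8, Ccl12, Ccl22, Ccl24, Cxcl3 and Cxcl9 and the receptors Ccr3, Ackr1 and Ackr4. Ccl22 and Ccl24 are products of alternatively activated macrophages, Ccr3 is the eotaxin receptor of eosinophils, Ackr1 is the Duffy receptor of red cells and Ackr4 removes homeostatic CC ligands. None of the 12 arrays exceeded log2 2.01 for Ccl8, Ccl12, Ccr3 or Ackr1. For Cxcl3 and Ackr4 1 array did, for Ccl22 2, for Ccl24 3 and for Cxcl9 4. Cxcl9 averaged 1.99 ± 0.20, 1.93 ± 0.08 and 1.90 ± 0.16 with Pre-miR-223, Anti-miR-223 and Scramble. The threshold is a percentile of signals and not a detection call, so a low value does not show that a gene was silent.

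**Figure D3:**
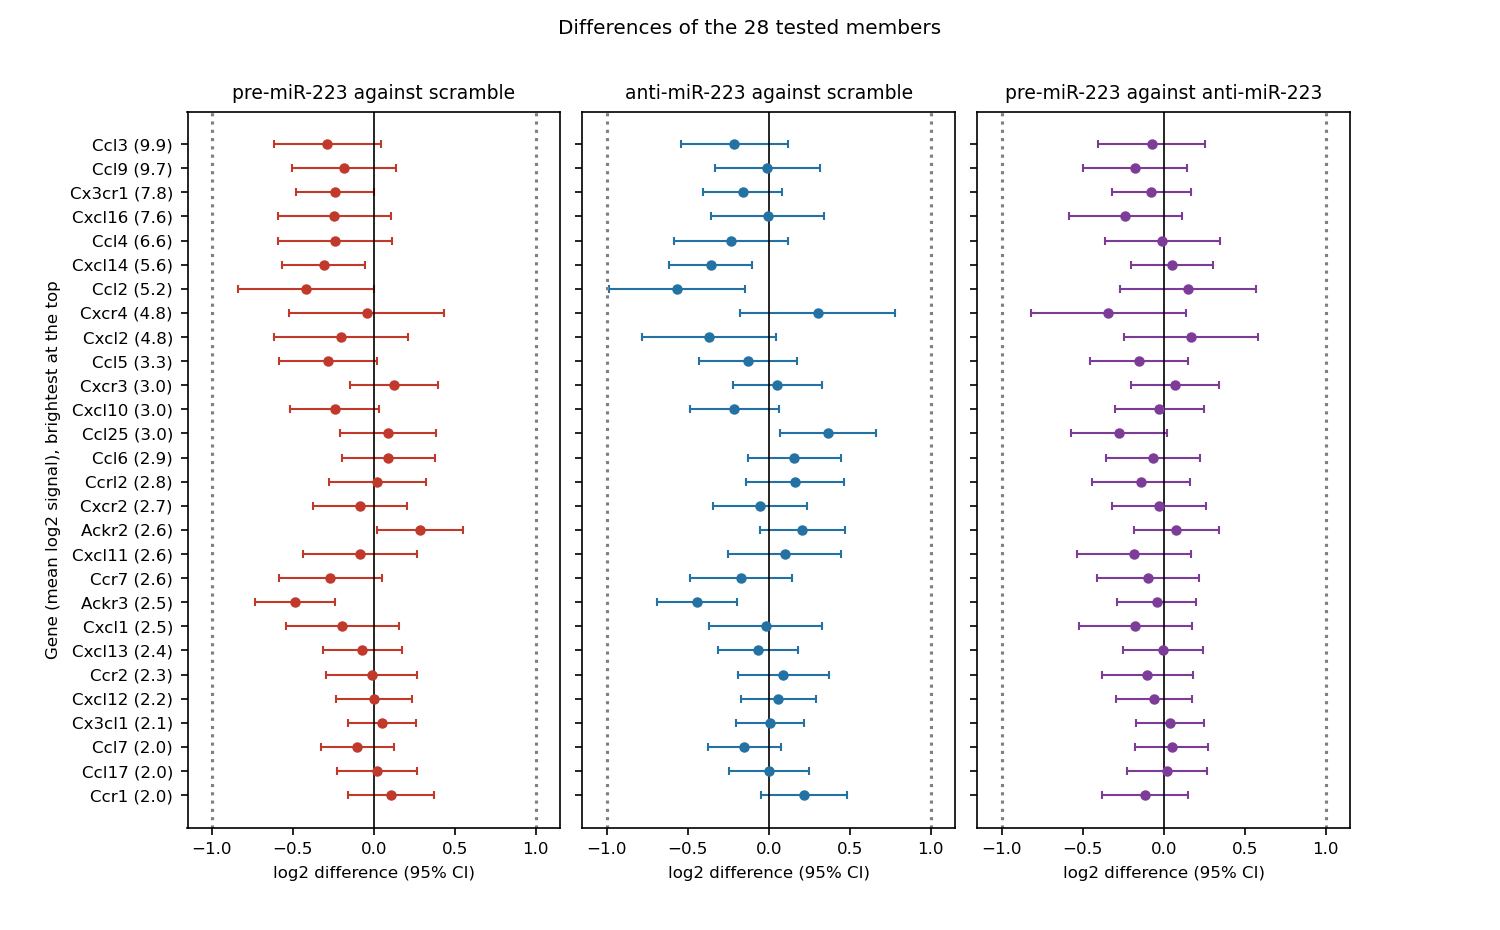
Log2 difference of each of the 28 tested genes with its 95% confidence interval (limma), brightest gene at the top and dotted lines at 2-fold, for Pre-miR-223 minus Scramble, Anti-miR-223 minus Scramble and Pre-miR-223 minus Anti-miR-223. The intervals of Ackr3 and Cxcl14 lie below 0 in both comparisons with Scramble, and no gene's interval excludes 0 between the oligonucleotides.

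Counted over the 28 tested genes, 19 had a lower mean with Pre-miR-223 than in Scramble arrays, with a median difference of -0.09; over all 14611 genes 65.2% were lower, with a median of -0.05. An unadjusted p under 0.05 was found for 3 (Ackr3 and Cxcl14 lower, Ackr2 higher), where 4.87% of all genes reached it. Groups did not overlap for 4 (Ackr3, Cxcl14, Cx3cr1 and Ccr7, all lower), where 2.98% of all genes did not overlap and 2.2% did not with the lower mean in Pre-miR-223. Ligands were lower in 13 of 18, with a median of -0.19, and receptors in 6 of 10, with a median of -0.03. By class, 6 of 9 CC ligands and 7 of 8 CXC ligands were lower.

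With Anti-miR-223, 17 of the 28 were lower than with Scramble, with a median of -0.01, against 52.5% and a median of -0.01 over all genes. An unadjusted p under 0.05 was reached by 4 (Ackr3, Ccl2 and Cxcl14 lower, Ccl25 higher), against 2.01% of all genes, and only Cxcl2 did not overlap, against 1.55%. Ligands were lower in 13 of 18 and receptors in 4 of 10, or in 12 and 5 without Anti-miR-223 replicate 4. Without Anti-miR-223 replicate 4, 17 of 28 were again lower, against 63.6% of all genes. There were then 5 genes at an unadjusted p under 0.05 (Ccl2, Cxcl2, Cxcl14, Cx3cr1 and Ackr3), against 6.69%, and 2 without overlap (Cxcl2 and Cx3cr1), against 6.55%. Their lowest adjusted p by limma was 0.712.

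Directly compared, Pre-miR-223 and Anti-miR-223 differed in no chemokine gene at an unadjusted p under 0.05, where 3.61% of all genes did, and no gene's groups failed to overlap, where 1.67% did. Pre-miR-223 was lower for 20 of 28, against 62.8% of all genes. The largest differences were -0.34 (-0.82 to 0.13) for Cxcr4, -0.28 (-0.58 to 0.02) for Ccl25 and -0.24 (-0.59 to 0.11) for Cxcl16. They became -0.04, -0.19 and -0.08 when Anti-miR-223 replicate 4 was left out; 20 of 28 genes were then lower, against 52.2% of all genes, with 0 at an unadjusted p under 0.05 and 0 without overlap, against 4.89% and 4.84%. Ccl2 differed by 0.15 (-0.27 to 0.57), Cxcl14 by 0.05 (-0.20 to 0.31) and Ackr3 by -0.04 (-0.29 to 0.20) between the oligonucleotides, and by 0.26, 0.00014 and -0.06 without that array.

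The comparison of both oligonucleotides with Scramble was added because earlier results of these data showed members lower in both groups. Its p-values and intervals therefore describe values already seen. The mean of both oligonucleotides was lower than Scramble for 16 of 28, against 61.1% of all genes. An unadjusted p under 0.05 was found for 4 (Ackr3, Cxcl14 and Ccl2 lower, Ackr2 higher), against 3.17%. The differences were -0.47 (-0.68 to -0.25) for Ackr3, -0.33 (-0.56 to -0.11) for Cxcl14 and 0.25 (0.02 to 0.47) for Ackr2, and -0.46, -0.31 and 0.26 without Anti-miR-223 replicate 4. For none of the 28 did all 8 oligonucleotide arrays lie apart from the 4 Scramble arrays, against 0.185% of all genes. Without Anti-miR-223 replicate 4, 18 of 28 were lower, against 65.8%, Cx3cr1 alone lay apart, against 0.595%, and 5 genes had an unadjusted p under 0.05 (Ackr3, Cxcl14, Ccl2, Cx3cr1 and Ackr2), against 9.08%.

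The direction of a difference went with signal level in all genes, so the members were also set against genes of like signal; this split was chosen after the values were seen. Ccl2, Ccl3, Ccl4, Ccl9, Cxcl2, Cxcl14, Cxcl16, Cxcr4 and Cx3cr1 had a mean at or above log2 4, in a gap of signals that ended below at Ccl5, 3.28. All 9 had a lower mean with Pre-miR-223 than in Scramble arrays, with a median of -0.24, as were 79% of all genes at that level, with a median of -0.11. Other scalings made these differences smaller and turned Cxcr4, so that 8 of 9 were lower in each: the median was -0.16 after centring, -0.14 after repeated quantile normalisation and -0.13 after cyclic loess, where 58%, 49.9% and 49.1% of all genes at that level were lower, with medians of -0.03, 0.00056 and 0.0039. Over the same settings, Ccl9 ran from -0.11 to -0.05, Cxcl2 from -0.12 to -0.09 and Ccl3 from -0.21 to -0.16, against -0.19, -0.20 and -0.29 as deposited. For Anti-miR-223 the count below was 8 after centring and 6 in each of the others, where Cxcl16 and Ccl9 turned as well. With Anti-miR-223, 8 of 9 were lower, against 58.2%; without replicate 4, 9 of 9 were, against 80.3%, with medians of -0.19 and -0.11. Among the 19 tested members below log2 4, 10 were lower with Pre-miR-223, against 52.6% of all such genes, and 9 with Anti-miR-223, against 47.3%. Pre-miR-223 was lower than Anti-miR-223 for 6 of the 9 members at or above log2 4, against 72.6% of all genes there, and for 14 of the 19 below, against 53.8%. The mean of both oligonucleotides was lower than Scramble for 8 of 9 and 8 of 19, against 73.8% and 49.6%. With Anti-miR-223 replicate 4 left out, Anti-miR-223 was lower than Scramble for 8 of the 19 members below log2 4, against 48.4%. Pre-miR-223 was then lower than Anti-miR-223 for 5 of 9 and 15 of 19, against 50.4% and 53.9%, and the mean of both was lower than Scramble for 9 of 9 and 9 of 19, against 83.4% and 49.8%. The part of signal level in these counts was not tested.

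**Figure D4:**
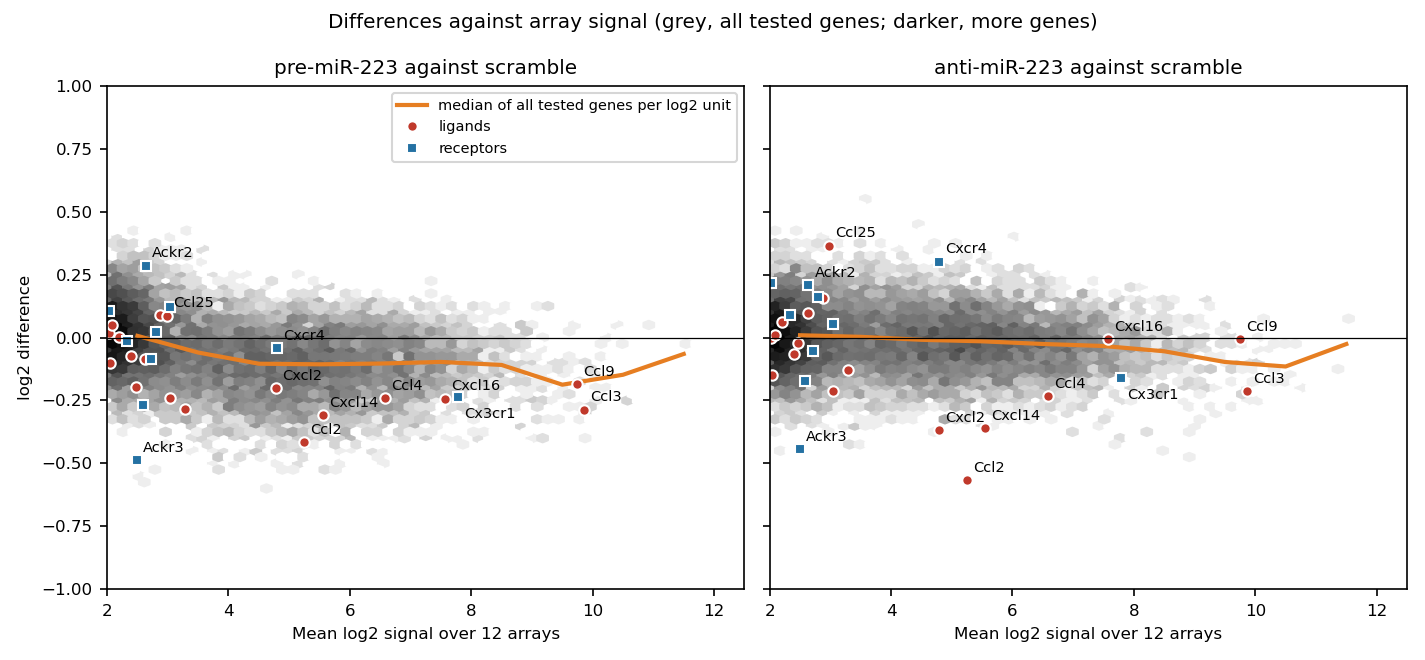
Log2 difference from Scramble against mean log2 signal for Pre-miR-223 and for Anti-miR-223, with the density of all tested genes in grey, their median per log2 unit as a line, the tested ligands as circles and the tested receptors as squares; differences beyond 1 are not drawn. Genes at log2 4 or above lie mostly below 0 with Pre-miR-223, where 9 of 9 members and 79% of all genes are lower as deposited, and 8 of 9 members after centring, repeated quantile normalisation or cyclic loess.

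**Figure D5:**
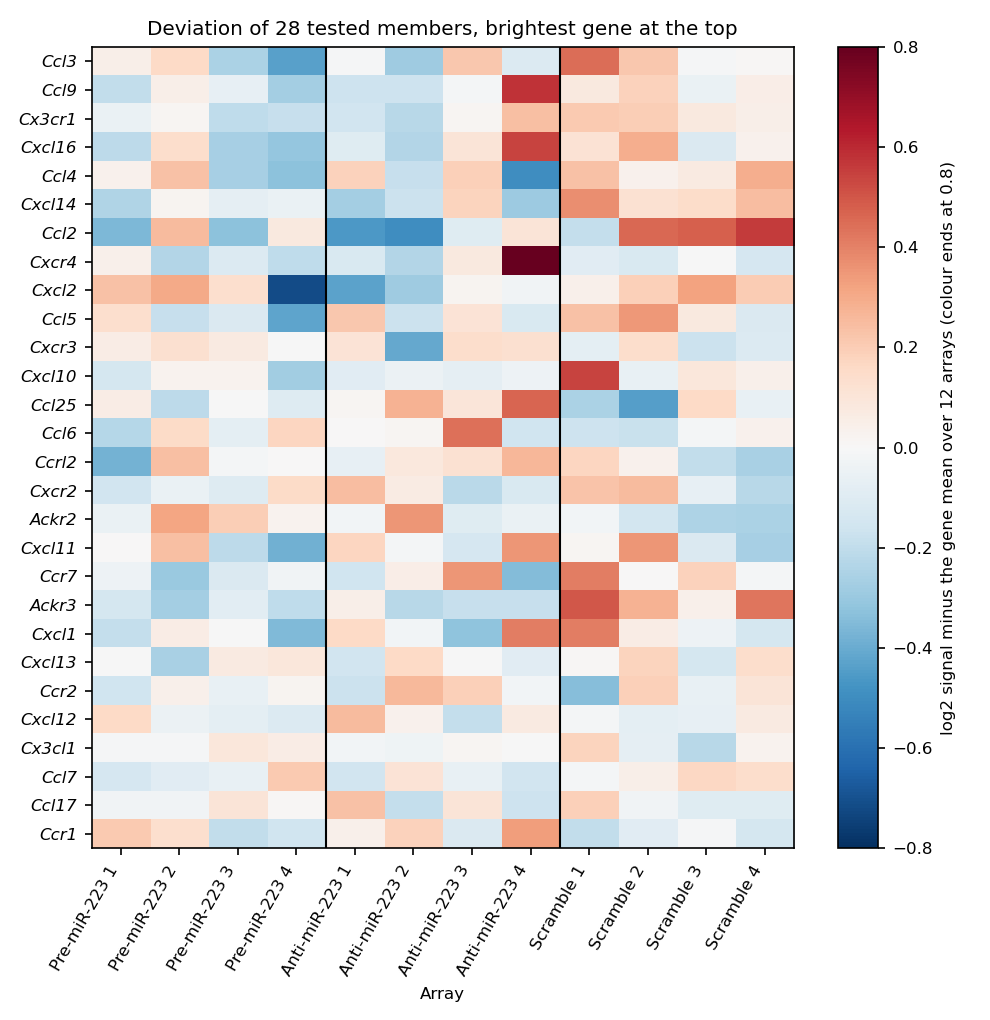
Deviation of each of the 28 tested genes from its 12-array mean (log2) in each Pre-miR-223, Anti-miR-223 and Scramble array. Anti-miR-223 replicate 4 holds the highest signal for 8 genes and Pre-miR-223 replicate 4 the lowest for 8.

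Genes around the chemokine system were followed on 6 lists of other genes, none of which had a call in any comparison. Most of the genes on 5 of the lists had a mean at or above log2 4. Against Scramble, 79% of all genes at that level were lower with Pre-miR-223 and 58.2% with Anti-miR-223, or 80.3% without its replicate 4. Set against Anti-miR-223, Pre-miR-223 was lower for 72.6%, or 50.4% without that array, and for both oligonucleotides against Scramble 73.8%, or 83.4%. The counts of the lists moved with the scaling too. For Pre-miR-223 and Anti-miR-223, each against Scramble, they are given below as deposited and after repeated quantile normalisation. After it, 49.9% of all genes at that level were lower with Pre-miR-223 and 51.5% with Anti-miR-223. Counts of the other comparisons are given as deposited, with and without Anti-miR-223 replicate 4, and not after another scaling.

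Of 35 tested genes of chemokine receptor signalling, 31 lay at or above log2 4. Against Scramble, 32 of 35 were lower with Pre-miR-223, or 21 after repeated quantile normalisation. With Anti-miR-223 15 were lower, or 12 after that normalisation, but 30 when replicate 4 was left out. The kinase subunit gene Pik3cd, which acts downstream of receptors in leukocytes, averaged 5.64 with Pre-miR-223 and 5.90 in Scramble arrays, differing by -0.25 (-0.48 to -0.02). Akt1, a kinase below it, differed by -0.29 (-0.56 to -0.03). With Anti-miR-223, the Rac exchange factor Prex1 differed by -0.22 (-0.50 to 0.05) and the arrestin Arrb2 by -0.19 (-0.44 to 0.06), or by -0.31 and -0.07 without replicate 4. Comparing Pre-miR-223 with Anti-miR-223, 27 were lower, or 20 without that array. Rgs19, a brake on Gi signalling, differed by -0.50 (-0.96 to -0.04) and Pik3cd by -0.25 (-0.48 to -0.02), or by -0.27 (-0.60 to 0.06) and -0.18 (-0.40 to 0.04) without it. Both oligonucleotides together were lower than Scramble for 30, or 31 without it, with Akt1 at -0.21 (-0.44 to 0.02) and Was, an organiser of actin, at -0.19 (-0.41 to 0.02), or -0.24 and -0.21.

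Of 28 tested NF-kB and interferon regulators of chemokine transcription, 23 lay at or above log2 4. With Pre-miR-223 26 were lower, or 17 after repeated quantile normalisation. With Anti-miR-223 20 were lower, or 19 after it, and 23 without replicate 4. Irf7, a master factor of type I interferon induction, averaged 5.28 with Pre-miR-223 and 5.81 in Scramble arrays, differing by -0.52 (-0.92 to -0.13), and Irf9, its partner factor in interferon signalling, differed by -0.39 (-0.73 to -0.05). With Anti-miR-223, Nfkb2, an NF-kB subunit, differed by -0.27 (-0.52 to -0.01) and Bcl3, an atypical IkB protein, by -0.23 (-0.50 to 0.03), or by -0.33 and -0.24 without replicate 4. Rela, the main transactivating NF-kB subunit, differed by -0.41 (-0.84 to 0.01) between Pre-miR-223 and Anti-miR-223 and Irf7 by -0.41 (-0.80 to -0.02), or by -0.21 and -0.35 (-0.75 to 0.04) without that array; 21 of 28 were lower in that comparison, or 16 without it. For both oligonucleotides against Scramble 23 were lower, or 24 without it, with Nfkb2 at -0.26 (-0.48 to -0.04) and Irf9 at -0.28 (-0.57 to 0.02), or -0.30 and -0.35.

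All 16 tested regulators of mRNA decay lay at or above log2 4. With Pre-miR-223 15 were lower, or 8 after repeated quantile normalisation, and with Anti-miR-223 10, also after it and without replicate 4. Zc3h12a, the endonuclease that degrades inflammatory mRNAs, averaged 4.34 with Pre-miR-223 and 4.68 in Scramble arrays, differing by -0.35 (-0.63 to -0.06), and the deadenylase subunit Cnot8 differed by -0.21 (-0.50 to 0.09). With Anti-miR-223, Zc3h12a differed by -0.18 (-0.47 to 0.11) and the exonuclease gene Xrn1 by 0.16 (-0.15 to 0.47), or by -0.19 and 0.00079 without replicate 4. Between Pre-miR-223 and Anti-miR-223, 11 of 16 were lower, or 12 without that array. The decapping cofactor Dcp1a differed there by -0.28 (-0.69 to 0.12) and Rc3h1, the RNA-binding protein roquin, by -0.33 (-0.83 to 0.16), or by -0.06 and -0.05 without it. For both oligonucleotides against Scramble 14 were lower, or 15 without it, with Zc3h12a at -0.26 (-0.51 to -0.01) and the mRNA-stabilising Elavl1 at -0.13 (-0.32 to 0.06), or -0.27 and -0.14.

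Of 13 tested genes for other chemoattractants and their receptors, 9 lay at or above log2 4. With Pre-miR-223 8 were lower, or 6 after repeated quantile normalisation. With Anti-miR-223 4 were lower, or 3 after it, but 9 without replicate 4. The inflammatory cytokine gene Tnf differed by -0.24 (-0.54 to 0.06) and the macrophage growth factor receptor gene Csf1r by -0.27 (-0.64 to 0.11) with Pre-miR-223. Mif, a chemokine-like cytokine that binds Cxcr4, differed by -0.18 (-0.55 to 0.19) and the receptor of platelet-activating factor, Ptafr, by 0.16 (-0.10 to 0.42) with Anti-miR-223, or by 0.03 and 0.06 without replicate 4. Between Pre-miR-223 and Anti-miR-223, 10 of 13 were lower, or 6 without that array, with Csf1r at -0.28 (-0.65 to 0.10) and the sphingosine phosphate receptor S1pr1 at -0.32 (-0.77 to 0.13), or -0.09 and -0.16. For both oligonucleotides against Scramble 6 were lower, or 9 without it, with Tnf at -0.18 (-0.44 to 0.08) and Mif at -0.19 (-0.51 to 0.13), or -0.19 and -0.08.

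A list of 13 tested further chemokine and receptor genes lay entirely below log2 4, where 52.6% of all genes were lower with Pre-miR-223 and 47.3% with Anti-miR-223. On it 7 were lower with Pre-miR-223, also after repeated quantile normalisation, but 3 after centring. With Anti-miR-223 11 were lower, also in both settings, and 9 without replicate 4, against 48.4%. Ccr8, a receptor of regulatory T cells, averaged 1.85 with Pre-miR-223, 2.08 with Anti-miR-223 and 2.45 with Scramble. Its differences were -0.60 (-0.98 to -0.21) and -0.37 (-0.76 to 0.02), the second being -0.40 without replicate 4, and its signal with Pre-miR-223 was below the level required of a mean. Xcl1, a ligand of cross-presenting dendritic cells, differed by -0.20 (-0.43 to 0.02) and -0.14 (-0.36 to 0.09), the second being -0.19 without it. Between Pre-miR-223 and Anti-miR-223, 4 of 13 were lower, or 6 without that array, and the mucosal ligand Ccl28 differed by 0.16 (-0.05 to 0.37) and its receptor Ccr10 by 0.31 (-0.15 to 0.77), or by 0.17 and 0.10. For both oligonucleotides against Scramble 9 were lower, or 8 without it, with Ccr8 at -0.48 (-0.82 to -0.15) and Xcl1 at -0.17 (-0.37 to 0.03), or -0.50 and -0.19.

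Another list held proteases, proteoglycans and related proteins that trim or hold chemokines, and also chemokine-like Cmtm proteins, for which no such role is implied. Of its 17 tested genes, 11 lay at or above log2 4. With Pre-miR-223 13 were lower, or 11 after repeated quantile normalisation. With Anti-miR-223 9 were lower, also after it, but 15 without replicate 4. The chemokine-like transmembrane gene Cmtm7 averaged 6.53 with Pre-miR-223 and 6.98 in Scramble arrays, differing by -0.44 (-0.81 to -0.08), and Mmp14, a membrane protease that cleaves chemokines, differed by -0.21 (-0.43 to 0.007). Sdc1, a proteoglycan that binds chemokines, averaged 4.01 with Anti-miR-223 and 4.29 in Scramble arrays, differing by -0.28 (-0.49 to -0.07), without overlap, and Cmtm7 differed by -0.27 (-0.64 to 0.09). Without replicate 4 these were -0.27 and -0.14. Between Pre-miR-223 and Anti-miR-223, 14 of 17 were lower, or 12 without that array, with Cmtm3, a relative of Cmtm7, at -0.43 (-0.92 to 0.07) and Sdc1 at 0.16 (-0.05 to 0.37), or -0.16 and 0.15. For both oligonucleotides against Scramble 11 were lower, or 15 without it, with Cmtm7 at -0.36 (-0.67 to -0.04) and Sdc1 at -0.20 (-0.38 to -0.02), or -0.29 and -0.19. The part of signal level and of scaling in the counts of the 6 lists was not tested.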

How the data were processed

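The authors deposited log2 signals of 41345 transcript clusters on 12 arrays, whose base is taken as 2 because the submitters' processing notes name RMA, beside Affymetrix Expression Console and Partek; no version or genome build is given in the sources used here. The deposited arrays were not fully equalised: their medians ran from log2 2.21 to 2.31, and repeating the quantile normalisation moved the share of all genes whose Pre-miR-223 mean was below the Scramble mean to 50.2%, against 65.2% as deposited. Directions common to many genes therefore depend on the scaling. A table of the platform's annotation gave 1 symbol for 23521 clusters, several for 1814 and none for 16010. For each of 22180 symbols the cluster with the highest mean was kept, and genes with a mean above the 40th percentile (log2 2.01) were tested.

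The functions lmFit and eBayes of limma 3.58.1 (R 4.3.3) fitted the 3 groups of 4 arrays without covariates, with Benjamini-Hochberg adjustment over 14611 genes at 0.05. The procedure was tested on simulated data. Arrays give no count depth; their number limits the precision, and the median interval reached 0.29 to either side. Alternatives were 12 fits without 1 array and 10 other settings. The members, lists, markers and tests were chosen with earlier results of these data known. Values in every array are given for the 4 members with the smallest p in each comparison and for Ccl2, Ccl3, Ccl4, Cxcl2, Cxcl10 and Ccr2, and from each list the 2 genes with the smallest p in a comparison are named; Cx3cr1 was added after its values were seen.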

Additional observations from a re-analysis of the deposited data

Results flagged for a closer look

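Of 84 groups of 4 arrays (28 genes in 3 groups), 5 held an array far from the other 3, by Dixon's test at its 95% critical value, where chance gives about 1 in 20. For Ccl2, Scramble replicate 1 was lowest at 5.06, with the nearest array at 5.71. For Cxcl2, Pre-miR-223 replicate 4 was lowest at 4.07, with the nearest at 4.92. Cxcr3 was lowest in Anti-miR-223 replicate 2, at 2.63, with the nearest at 3.15. Ackr2 was highest in Anti-miR-223 replicate 2, at 2.99 with the nearest at 2.61, and Ackr3 was highest in Anti-miR-223 replicate 1, at 2.54 with the nearest at 2.31. Anti-miR-223 replicate 4, which stood apart over all genes, gave 0 of the 5.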

How the results depend on the processing

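No fit in 22 alternatives called any gene; at an unadjusted p under 0.05 between 314 and 1884 genes stood against Scramble with Pre-miR-223 and between 220 and 978 with Anti-miR-223. The labels' replicate numbers did not pair the arrays (correlations of same-numbered deviations from -0.503 to 0.393), and the fit with the replicate block called 0 genes in each comparison, with 547 at an unadjusted p under 0.05 for Pre-miR-223 against Scramble in place of 711. Centring each array moved the share of all genes whose mean was lower in Pre-miR-223 than in Scramble arrays to 43%, against 65.2% as deposited, repeated quantile normalisation to 50.2% and cyclic loess to 49.6%; 16, 19 and 20 of the 28 members were then lower. For Anti-miR-223 against Scramble the share of 52.5% was 51.6%, 49.9% and 49%, with 16, 14 and 15 members lower in place of 17. Between Pre-miR-223 and Anti-miR-223 the share of 62.8% was 41%, 50.2% and 50%, with 11, 18 and 16 members lower. For both oligonucleotides against Scramble 61.1% was 46.3%, 49.7% and 48.7%, with 16, 16 and 17. The median difference of the members for Pre-miR-223 against Scramble, -0.09, was -0.19 with the filter at the 50th percentile (23 members), -0.014 after centring, and from -0.17 to -0.085 over fits without 1 array. For Anti-miR-223 against Scramble it ran from -0.065 to 0.012 over such fits. For Pre-miR-223 against Anti-miR-223 it was 0.014 after centring, and for both oligonucleotides against Scramble it was 0.0072 without the filter. 

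Directions of single small differences turned as follows among the 13 genes named by rule; of the 15 other tested members, 7 turned in some alternative for Pre-miR-223 against Scramble, 5 for Anti-miR-223 against Scramble, 9 for Pre-miR-223 against Anti-miR-223 and 5 for both oligonucleotides against Scramble, none with a difference beyond 0.11. Pre-miR-223 minus Scramble for Cxcr4 was 0.037 centred, 0.077 quantile, 0.067 loess and 0.0037 with array weights, and for Ccr2 0.067 centred. Anti-miR-223 minus Scramble for Cxcl16 was 0.021 quantile and 0.027 loess, and for Ccl9 0.067 and 0.034. Pre-miR-223 minus Anti-miR-223 was, after centring, 0.034 for Ackr3, 0.0032 for Ccl3, 0.069 for Ccl4 and 0.051 for Cxcl10. It was 0.014 for Ccl3 and 0.087 for Ccl4 by quantile, 0.0094 for Ccl3, 0.072 for Ccl4 and 0.0072 for Cxcl10 by loess, and -0.054 for Cxcl14 with array weights. Both oligonucleotides minus Scramble for Ccl9 was 0.0075 by quantile. Over fits without 1 array, Pre-miR-223 minus Scramble ran from -0.12 to 0.060 for Ccr2, from -0.31 to 0.034 for Cxcl2 and from -0.0091 to 0.19 for Ccl25. Anti-miR-223 minus Scramble ran from -0.16 to 0.099 for Cxcl16, from -0.18 to 0.067 for Ccl9, from -0.0026 to 0.45 for Cxcr4 and from -0.015 to 0.17 for Ccr2. Pre-miR-223 minus Anti-miR-223 ran from -0.15 to 0.082 for Ccl4, from -0.17 to 0.030 for Ccl3, from -0.067 to 0.036 for Cxcl10 and from -0.075 to 0.017 for Ackr3. Both oligonucleotides minus Scramble ran from -0.023 to 0.20 for Cxcr4 and from -0.066 to 0.11 for Ccr2. The cause of these turns was not tested. Near log2 2 the signal is close to the array's floor, where differences may be understated.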
